A study of Homo sapiens with 4 samples.

Results

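The genes of cytosolic translation initiation and elongation were followed across 4 RNA-seq libraries of the liver cancer line HepG2, which is human and keeps many hepatocyte genes on. They were chosen by a rule on the gene name, with earlier results of these data known. It took every row whose symbol starts with EIF and a digit from 1 to 6 or with EEF and 1 or 2. The kinases named EIF2AK were left out. Of 23368 symbols, 66 matched, and 59 of these had, averaged over the libraries, a normalized count of 1 or more. A normalized count is the number of reads of a gene divided by a size factor of its library, with no scaling for gene length. Just above the limit was EIF3IP1, a pseudogene row with a mean of 2.83, and just below it was EIF4EBP3, a row for an inhibitor of eIF4E, with 1 read in all and a mean of 0.23.

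The shCtrl library came from HepG2 cells carrying a lentiviral control hairpin RNA, and the shPJA1 library from cells carrying a lentiviral hairpin against PJA1, a RING-type ubiquitin ligase. The TGFb1 library came from cells given TGF-beta1, for which the protocol states 200 pM and 1 hour. The labels do not say whether the cells of that library carried a control hairpin. The labels of the remaining library conflict, since its title reads shPJA/TGFb1, its treatment field reads water, and the series' design text has an untreated control in its place. It is called the titled shPJA/TGFb1 library throughout. Each condition had 1 library, so no difference has a replicate check. In bulk RNA, fewer cells that express a gene and less RNA per cell cannot be told apart. Nothing in the labels says how many cultures stood behind a library or how many clones made up a hairpin line.

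Reads assigned to genes numbered 990698 to 2848665 per library. PJA1 had normalized counts of 50.3 in shCtrl and 38.2 in TGFb1, against 15.3 in shPJA1 and 9.78 in titled shPJA/TGFb1, and SMAD7, an early TGF-beta target, had 83.0 and 69.3 in shCtrl and shPJA1 against 168.0 and 158.1 in TGFb1 and titled shPJA/TGFb1. The SMAD7 value goes against the water label of the titled shPJA/TGFb1 library, and its PJA1 value goes against an untreated control without the hairpin. The 7 hepatocyte markers summed to between 31399 and 36846 normalized counts in every library. Most of that sum was apolipoprotein B, at 24416 to 29509, followed by albumin at 3222 to 3617 and SERPINA1 at 2914 to 3586. APOA1 and AFP ranged from 347 to 472, while TTR had 23.35 to 36.2 and FGB 8.15 to 28.1. Of 5 leukocyte markers PTPRC and CD3E were at 0 in every library, and the sum of 985 to 1351 was nearly all LYZ, at 978 to 1343. Endothelial markers summed to at most 3.51, with CDH5 at 0, and fibroblast markers to at most 8.18.

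Translation starts when eIF2 brings the initiator tRNA to the small ribosomal subunit, helped by eIF1, eIF1A, eIF3 and eIF5, while eIF4E, eIF4G and the helicase eIF4A bring the capped end of the messenger RNA. eEF1A then delivers each aminoacyl-tRNA, its GTP being renewed by the eEF1B subunits, and eEF2 moves the ribosome along. Liver cells make large amounts of secreted protein, and many messenger RNAs of elongation factors and ribosomal proteins start with a run of pyrimidines, the TOP motif, through which mTORC1 controls their translation.

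The start sites of 8 members are shown because that motif is read at the very first bases of the transcript. Each sequence holds 15 bases before the annotated start and 15 bases from the start base on, on the transcript strand (RefSeq, GRCh38.p14), and the run searched for is a C followed by at least 4 C or T that begins within 10 bases of the start on either side. Capitals mark the longest such run of a window, so that shorter ones, as in EEF1B2 and EIF3F, stay in lower case. The first 6 are factors that background knowledge counts among the TOP messenger RNAs, and the last 2, EIF4E and EIF5A, are initiation factors. The windows printed for EEF1G, EIF4E and EIF5A hold no such run.
EEF1A1 (chr6:73521018-73521047, minus strand): gtcgccgtgaacgttCTTTTTCgcaacggg
EEF1B2 (chr2:206159880-206159909, plus strand): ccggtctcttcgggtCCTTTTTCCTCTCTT
EEF1G (chr11:62573877-62573906, minus strand): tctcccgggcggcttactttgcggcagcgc
EEF2 (chr19:3985449-3985478, minus strand): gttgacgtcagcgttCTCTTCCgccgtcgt
EIF3F (chr11:7987322-7987351, plus strand): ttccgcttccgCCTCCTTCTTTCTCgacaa
EIF4B (chr12:53006441-53006470, plus strand): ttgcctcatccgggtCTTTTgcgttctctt
EIF4E (chr4:98929119-98929148, minus strand): ccttctggagcggttgtgcgatcagatcga
EIF5A (chr17:7306984-7307013, plus strand): atgggtgggaacccgaccacactagcgcgc

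In EEF1A1, EEF1B2, EEF2 and EIF4B the run began exactly at the annotated first base, as the sequences show, and in EIF3F it began 4 bases before it. For EEF1B2 and EIF5A, which have 2 and 6 annotated starts, 1 is printed. A run of this kind at any annotated start was found for 26 of the 48 kept members with a window (54.2%), for 58 of 65 ribosomal protein genes (89.2%) and for 41.2% of the 9303 kept genes with a window. A match only states that these letters lie in the window. Members with a run and members without one had median log2 differences of -0.04 and 0.03 for shPJA1 over shCtrl, and of 0.15 and 0.05 for TGFb1 over shCtrl.

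The levels of the factors spanned a wide range, as the plot of normalized counts by library shows. Per kilobase of longest transcript, EEF2 was the most abundant member in every library, at 1499 normalized counts per kilobase in shCtrl and 1291 in shPJA1, with 1411 in TGFb1 and 1486 in titled shPJA/TGFb1. It ranked 9 by this measure among the 12834 of 13387 kept genes with a matched transcript length. EIF4G2, which encodes an eIF4G-like protein without the cap-binding protein's site, came next at 543 to 596, followed by EIF4A2, a helicase of the cap complex, at 445 to 575, and EIF6, which keeps free large subunits from joining, at 370 to 421. At the low end per kilobase stood EIF4E3, EIF5AL1, EIF3F and EIF4E, the first of them at 0.33 to 1.77. Lengths from the longest transcript overstate those of some genes, and 6 of the 10 most abundant members remained among the 10 when the median transcript length was used.

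**Figure D1:**
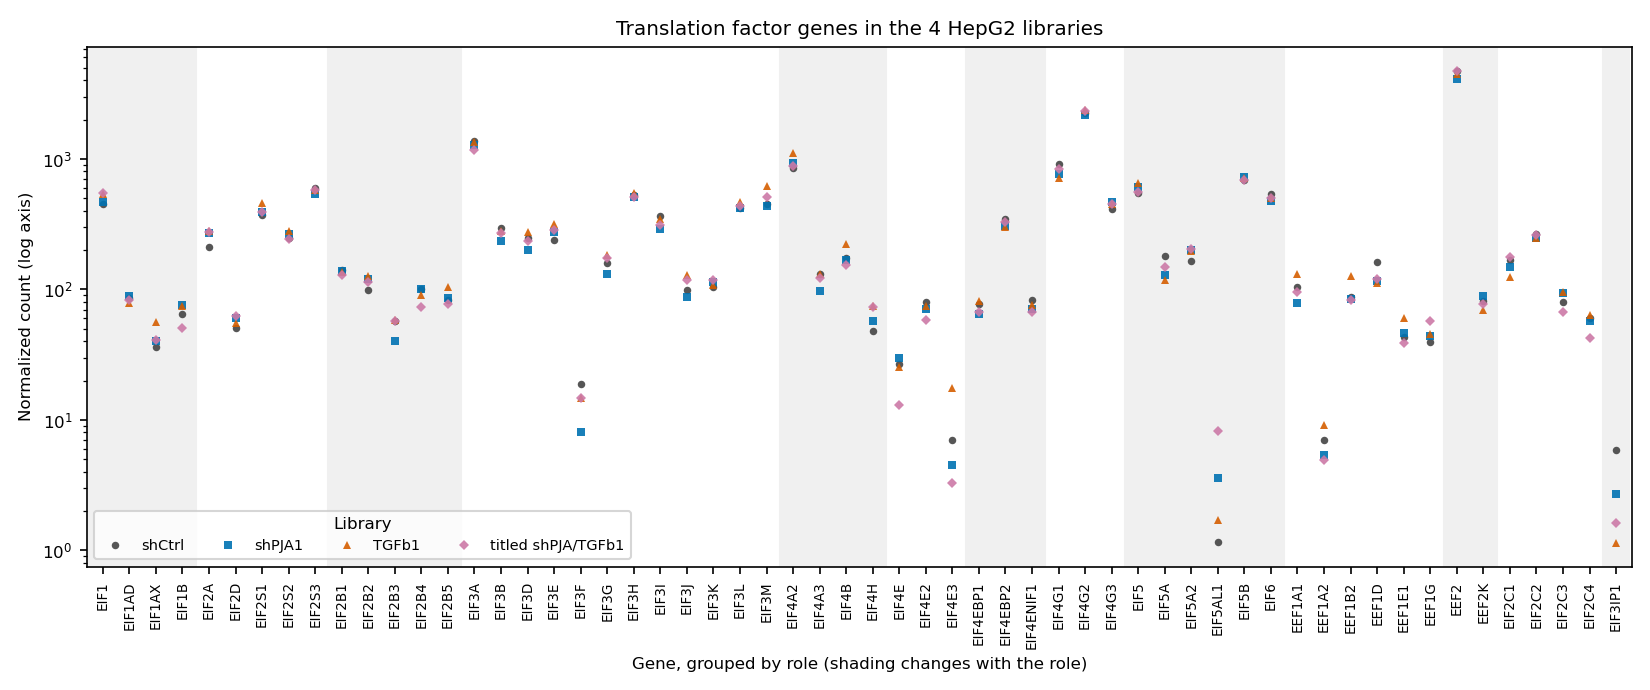
Normalized counts (log axis) of 58 of the 59 kept members in the 4 libraries, 1 column per gene and 1 symbol per library, ordered by role; EIF1AY, the Y-linked form of EIF1AX, is not drawn. For most genes the 4 symbols nearly coincide, EEF2 lies highest at 4086 to 4742, and the widest spreads are at the low genes EIF4E3, EIF5AL1 and EIF3IP1.

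Several factors known to be abundant in human cells had few or no reads in the deposited table. EIF4A1, the main eIF4A helicase gene, and EIF3C and EIF3CL, near-identical copies that encode an eIF3 core subunit, were listed at 0 in every library, as were EIF4E1B, EEF1DP3 and the readthrough row EEF1E1-MUTED. In GENCODE release 29, 13 pseudogenes carry the name of EIF4A1 and the readthrough gene SENP3-EIF4A1 overlaps it on the same strand. EEF1A1, which encodes the main form of eEF1A, had only 89, 88, 229 and 59 reads in shCtrl, shPJA1, TGFb1 and titled shPJA/TGFb1 and ranked 44 among the members per kilobase, and 39 pseudogenes carry its name. For EEF2 the number of such pseudogenes is 0. The sources used here do not give how reads that match several copies were counted. The levels of EEF1A1, EEF1B2, EEF1D, EEF1G, EIF1, EIF4A2, EIF4B and EIF4E, each with at least 5 named pseudogenes, are uncertain. Of these, EIF4A2, with 5, and EIF1, with 7, ranked 3 and 6 among the members per kilobase. EIF3C and EIF3CL, at 0 reads, have 0 named pseudogenes. Whether pseudogenes bear on any of these levels was not tested.

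Between libraries the members differed little. The size rule counts a gene as different when log2 of the normalized count plus 1 differs by at least 1.5-fold, a scale that understates differences of low genes. For shPJA1 over shCtrl, 1 member was higher (EIF5AL1) and 2 were lower (EIF3F and EIF3IP1), where 9.98% of all kept genes were higher and 10.4% lower. For TGFb1 over shCtrl, 3 members were higher (EIF1AX, EIF4E3 and EIF4H) and 2 lower (EIF3IP1 and EIF5A), against 9.18% and 12.3% of all kept genes. For titled shPJA/TGFb1 over shCtrl, 2 were higher (EIF4H and EIF5AL1) and 3 lower (EIF3IP1, EIF4E and EIF4E3), against 10.4% and 13.9%. Titled shPJA/TGFb1 over shPJA1 gave 2 higher (EIF3F and EIF5AL1) and 1 lower (EIF4E), against 10.2% and 13.1%. Titled shPJA/TGFb1 over TGFb1 gave 1 higher (EIF5AL1) and 5 lower (EEF1A2, EEF1B2, EEF1E1, EIF4E and EIF4E3), against 11.8% and 11.8%.

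Several of these members had few reads. EIF5AL1, a copy of EIF5A, had 13 reads over all libraries and EIF3IP1 had 11. Among the 54 members with a mean of at least 20, 0 passed for shPJA1 over shCtrl, where 3.21% of the 8575 genes of that depth were higher and 3.17% lower. For TGFb1 over shCtrl 2 were higher and 1 lower (background 3.56% and 5.13%), and for titled shPJA/TGFb1 over TGFb1 0 were higher and 3 lower (4.76% and 4.33%). For titled shPJA/TGFb1, 1 was higher and 1 lower than in shCtrl (3.87% and 4.77%), and 0 were higher and 1 lower than in shPJA1 (3.52% and 4.33%).

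At a mean of at least 100, the spread of the members over the 4 libraries matched that of other genes read as deeply. The log2 range from the lowest to the highest library had a median of 0.30 over 35 members and of 0.31 over all 4007 genes. It stayed under 1.5-fold for 33 members (94.3%) and for 94.0% of the 4007. EIF5B, a GTPase that joins the ribosomal subunits, varied least, with normalized counts of 691, 719, 719 and 693 in shCtrl, shPJA1, TGFb1 and titled shPJA/TGFb1. Its log2 range of 0.06 was undercut by 1.02% of the genes of that depth. The widest ranges belonged to EEF1A1 at 0.71 and EIF5A at 0.60.

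**Figure D2:**
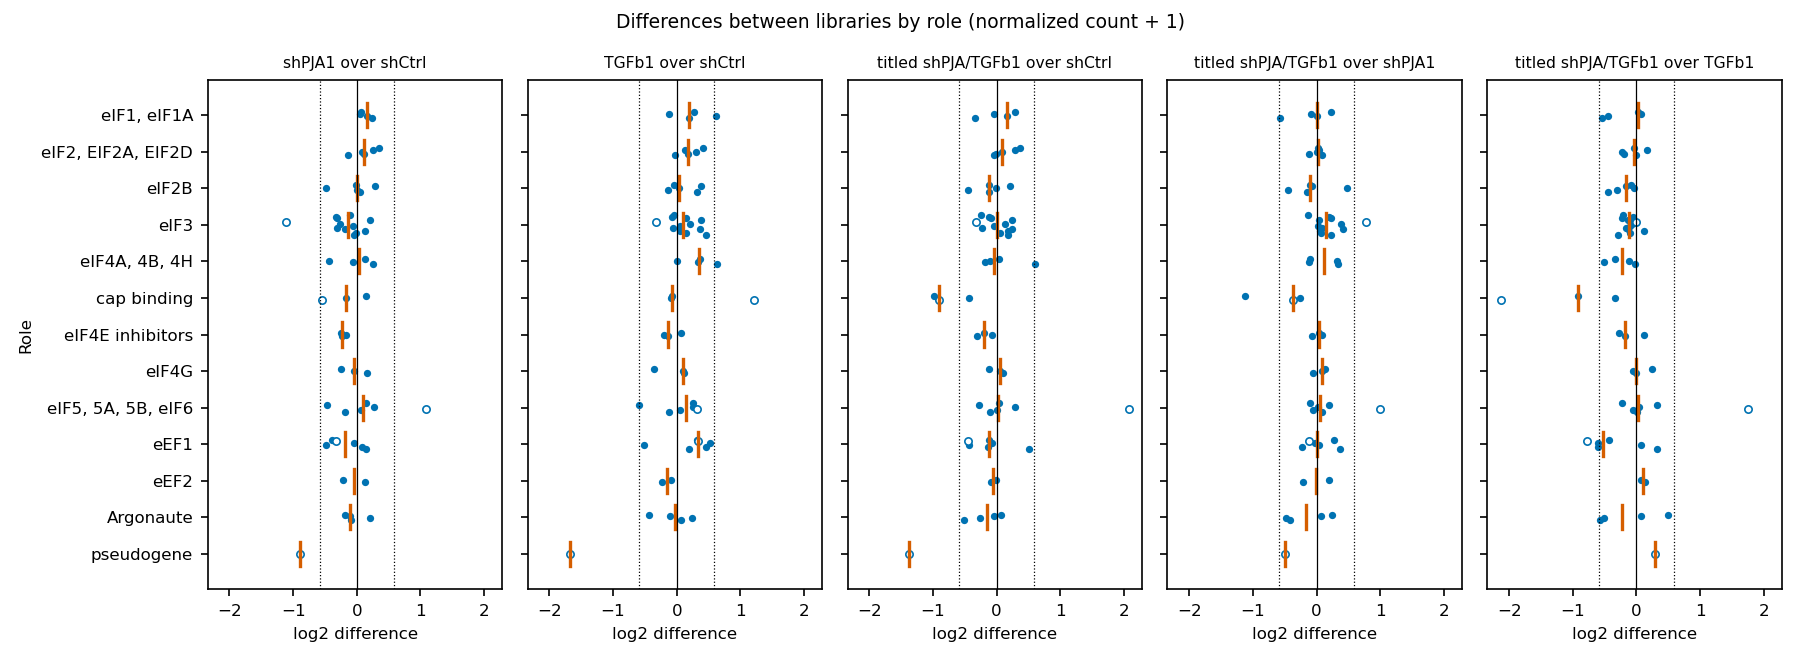
Log2 differences of the normalized count plus 1 for the 5 pairs of libraries, 1 point per gene, with filled points for genes of a mean of at least 20 and open points below it, orange bars for the median of each role and dotted lines at 1.5-fold. EIF1AY is counted in the medians but not drawn. Most filled points lie between the dotted lines, and the EIF4E point lies to the left of them in each pair with the titled shPJA/TGFb1 library.

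Counting error sets a finer limit for deeply read genes. Each ratio of normalized counts was given an exact 95% interval of 2 read counts, which covers counting error only and not the spread between cultures. In shPJA1 over shCtrl the interval left out 1 for 10 of the 54 members of a mean of at least 20, 1 of them higher and 9 lower, where 7.14% of all 8575 genes were higher and 6.09% lower. All 10 belong to the 35 members of a mean of at least 100, where the shares of all 4007 genes were 10.7% higher and 7.79% lower. In TGFb1 over shCtrl the intervals of 14 members lay above 1 and of 5 below it, with 13.5% and 10.6% of the 8575 genes. In titled shPJA/TGFb1 it was 2 above and 2 below against shCtrl (5.87% and 4.3%), 4 above and 2 below against shPJA1 (5.9% and 4.89%), and 3 above and 9 below against TGFb1 (8.69% and 9.46%). The shares for TGFb1 and titled shPJA/TGFb1 are not matched in depth. A mean of at least 100 was reached by 35 of the 54 members but by only 4007 of the 8575 genes.

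GC content moved with these differences. Across the 54 members, Spearman's rho between transcript GC content and the log2 difference was -0.53 for shPJA1 over shCtrl, where it was -0.32 across 8449 genes. For TGFb1 over shCtrl the values were -0.48 and -0.41, and for titled shPJA/TGFb1 over TGFb1 they were 0.32 and 0.38. The points share their libraries and depth. All 9 members below shCtrl in shPJA1 by their interval had a GC content of at least 50%, and EIF2A, above it, had 39.7%. The 19 members of at least 50% GC had a median log2 difference of -0.24 for shPJA1 over shCtrl and the 35 members below 50% had 0.05. For TGFb1 over shCtrl these medians were -0.06 and 0.17.

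**Figure D3:**
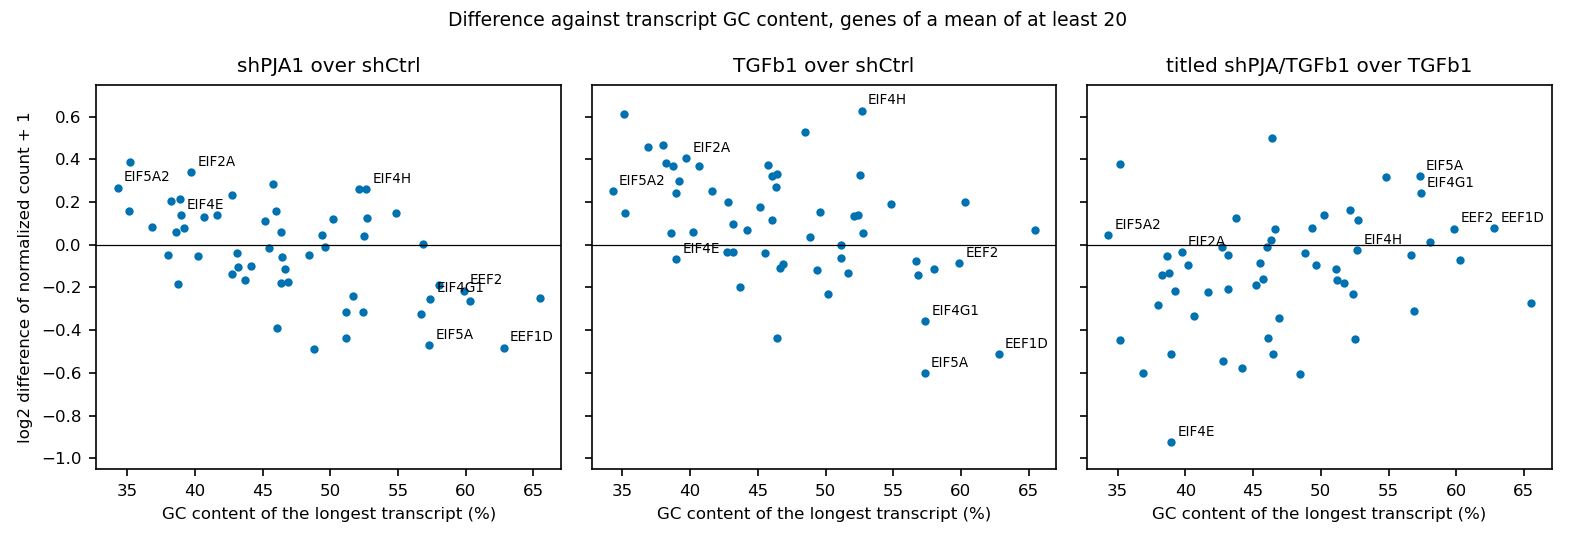
Log2 difference of the normalized count plus 1 against the GC content (percent) of the longest transcript for the 54 members of a mean of at least 20, in 3 of the pairs of libraries, 1 point per gene. The points slope down from left to right in shPJA1 over shCtrl and in TGFb1 over shCtrl, with EIF5A and EEF1D low at the GC-rich end, and slope up in titled shPJA/TGFb1 over TGFb1.

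The eIF1 proteins guard the choice of the start codon. EIF1 had normalized counts of 449 in shCtrl and 467 in shPJA1, with 542 in TGFb1 and 549 in titled shPJA/TGFb1, so that the 2 libraries whose titles name TGFb1 stood above the others. Its ratio was 1.21 (1.07 to 1.36) for TGFb1 over shCtrl and 1.18 (1.02 to 1.35) for titled shPJA/TGFb1 over shPJA1, a pair of comparisons that share no library. EIF1AX, the X-linked eIF1A gene, had 36.2, 40.5, 55.8 and 40.7, highest in TGFb1. TGFb1 over shCtrl was 1.54 (1.02 to 2.39) for EIF1AX, a log2 difference of 0.61, and of 0.35 once the GC trend was removed. EIF1B and EIF1AD ranged from 50.5 to 75.6 and from 78.6 to 88.2, and no interval for either left out 1.

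Of the eIF2 subunits, EIF2S3, the GTP-binding one, had 594, 540, 580 and 575 in shCtrl, shPJA1, TGFb1 and titled shPJA/TGFb1, and EIF2S2 had 247, 267, 278 and 244. EIF2S1, whose protein is the target of the stress kinases, had 372, 393, 457 and 393, highest in TGFb1, with a ratio of 1.23 (1.08 to 1.41) for TGFb1 over shCtrl and of 0.86 (0.74 to 0.99) for titled shPJA/TGFb1 over TGFb1. With the GC trend removed these log2 differences of EIF2S1 were 0.11 and -0.07, from 0.30 and -0.22. EIF2A, a separate protein that can carry initiator tRNA without being a subunit of eIF2, had 212 in shCtrl against 268, 281 and 274. The shCtrl library was thus the low one for EIF2A, with ratios over it of 1.27 (1.05 to 1.53) in shPJA1, 1.33 (1.12 to 1.58) in TGFb1 and 1.29 (1.04 to 1.61) in titled shPJA/TGFb1. These ratios share the shCtrl library. With the GC trend removed the log2 differences of EIF2A were 0.23, 0.23 and 0.34, from 0.34, 0.41 and 0.37.

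The 5 eIF2B genes, which encode the exchange factor that recharges eIF2, stayed within 1.5-fold in all 5 pairs. EIF2B1 was the steadiest, at 140, 139, 137 and 129 in shCtrl, shPJA1, TGFb1 and titled shPJA/TGFb1. EIF2B2 had 98.2, 120, 128 and 114, and its ratio for TGFb1 over shCtrl, 1.30 (1.01 to 1.69), was the single eIF2B interval to leave out 1. In that pair 13.5% of the 8575 genes had an interval above 1. EIF2B3 was lowest in shPJA1, at 40.5 against 57.0 to 58.7 elsewhere, and EIF2B4 was lowest in titled shPJA/TGFb1, at 73.3.

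Of the eIF3 genes, which encode the scaffold of the small-subunit complex, 12 were kept, and 10 of them lay below 0 for shPJA1 over shCtrl, with a median log2 difference of -0.14. Over all kept genes the median was 0.0021 and 49.5% lay below 0. EIF3B, EIF3D and EIF3I had normalized counts of 293, 248 and 362 in shCtrl and of 234, 199 and 291 in shPJA1. Their ratios were 0.80 (0.67 to 0.95), 0.80 (0.66 to 0.97) and 0.80 (0.68 to 0.94), with GC contents of 56.7%, 52.4% and 51.2%. After the GC trend was removed the eIF3 median was -0.18, with 9 of 12 below 0. The log2 differences of EIF3B, EIF3D and EIF3I were then -0.22, -0.24 and -0.25. The median was 0.14 for titled shPJA/TGFb1 over shPJA1, with 11 of 12 above 0 where 51.1% of all kept genes lay below 0, and this pair shares the shPJA1 library with the first. For titled shPJA/TGFb1 over shCtrl the eIF3 median was 0.01, with 6 of 12 below 0 against 50.7% of all kept genes. Over TGFb1 it was -0.11, with 11 of 12 below 0 against 51.2%, and with 7 of 12 below 0 once the GC trend was removed.

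EIF3M, a small eIF3 subunit, had 450 in shCtrl and 435 in shPJA1, with 621 in TGFb1 and 510 in titled shPJA/TGFb1. Both libraries titled with TGFb1 were above the others, with a ratio of 1.38 (1.23 to 1.55) for TGFb1 over shCtrl and of 1.17 (1.01 to 1.36) for titled shPJA/TGFb1 over shPJA1, which share no library. EIF3J, whose protein sits loosely on the complex, had 99.3, 87.3, 129 and 117 in the same order, with a ratio of 1.30 (1.01 to 1.68) for TGFb1 over shCtrl. EIF3E had 241, 277, 314 and 285, and 1.31 (1.11 to 1.54) in that pair. With the GC trend removed the log2 differences of EIF3M, EIF3J and EIF3E for TGFb1 over shCtrl were 0.25, 0.17 and 0.17, from 0.46, 0.37 and 0.38. EIF3A, the largest subunit, was lowest in titled shPJA/TGFb1 at 1167, against 1283 to 1380. EIF3H was the steadiest eIF3 gene, at 508 to 549. EIF3F had only 16, 9, 26 and 9 reads in shCtrl, shPJA1, TGFb1 and titled shPJA/TGFb1, and its 1.5-fold differences have intervals that hold 1.

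EIF4A2, EIF4B and EIF4H, a helicase of the cap complex and its cofactors, had their highest values in TGFb1. EIF4A2 had 853 in shCtrl and 934 in shPJA1, with 1103 in TGFb1 and 874 in titled shPJA/TGFb1. For EIF4A2 the ratio was 1.29 (1.19 to 1.41) for TGFb1 over shCtrl and 0.79 (0.72 to 0.87) for titled shPJA/TGFb1 over TGFb1, so the library with both names stood nearer to shCtrl. These log2 differences of EIF4A2 were 0.21 and -0.20 with the GC trend removed, from 0.37 and -0.34. EIF4B, which stimulates the helicase, had 175, 168, 221 and 155, with 1.26 (1.04 to 1.53) and 0.70 (0.55 to 0.88) for the same pairs. Both pairs share the TGFb1 library. EIF4H, a relative of EIF4B, had 47.9, 57.6, 74.6 and 73.3, lowest in shCtrl, with 1.56 (1.09 to 2.27) for TGFb1 over shCtrl. At a GC content of 52.7% its log2 difference was 0.63, and 0.72 with the GC trend removed. EIF4A3, a helicase of the exon junction complex, was lowest in shPJA1 at 97.2, against 122 to 132 elsewhere, with 0.74 (0.56 to 0.97) for shPJA1 over shCtrl.

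The cap-binding genes were read thinly. EIF4E, the cap-binding protein itself, had 23, 33, 45 and 8 reads in shCtrl, shPJA1, TGFb1 and titled shPJA/TGFb1, or normalized counts of 26.9, 29.7, 25.6 and 13.0. It was thus lowest in titled shPJA/TGFb1, with a ratio over shPJA1 of 0.44 (0.18 to 0.97), while the intervals over shCtrl and over TGFb1 held 1. EIF4E3, an atypical relative, had 6, 5, 31 and 2 reads, or 7.01, 4.50, 17.7 and 3.26. TGFb1 stood alone at the top for EIF4E3, with 2.52 (1.03 to 7.38) over shCtrl and 0.18 (0.021 to 0.73) for titled shPJA/TGFb1 over TGFb1. EIF4E2, which competes for caps, ranged from 58.7 to 79.5, with no interval that left out 1. All 3 were below 0 for titled shPJA/TGFb1 over each of the other libraries. Of all kept genes, 50.7% lay below 0 over shCtrl, 51.1% over shPJA1 and 51.2% over TGFb1. These pairs share the titled shPJA/TGFb1 library, where EIF4E and EIF4E3 had 8 and 2 reads.

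The inhibitors of eIF4E did not differ between libraries beyond counting error. EIF4EBP2 had 345 in shCtrl and 307 in shPJA1, with 301 in TGFb1 and 328 in titled shPJA/TGFb1. EIF4EBP1, the mTORC1 target, had 77.1, 64.8, 80.9 and 66.8, and EIF4ENIF1, which carries eIF4E into the nucleus, 83.0, 70.2, 75.7 and 66.8. No interval for the 3 genes left out 1.

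Among the eIF4G scaffolds, which hold the cap complex together, EIF4G1 was highest in shCtrl. EIF4G1 had 909 in shCtrl and 764 in shPJA1, with 709 in TGFb1 and 839 in titled shPJA/TGFb1. Ratios for EIF4G1 were 0.84 (0.76 to 0.93) for shPJA1 over shCtrl, 0.78 (0.71 to 0.85) for TGFb1 over shCtrl and 1.18 (1.07 to 1.31) for titled shPJA/TGFb1 over TGFb1. EIF4G3, its closest relative, was lowest in shCtrl instead, at 416 against 448 to 465, with intervals that held 1. EIF4G2 had 2228, 2172, 2385 and 2310, a log2 range of 0.14. EIF4G1 has a GC content of 57.4% and EIF4G3 of 46.0%, and the GC-corrected log2 differences of EIF4G1 against shCtrl were -0.15 in shPJA1 and -0.22 in TGFb1, from -0.25 and -0.36.

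EIF5A and EIF5A2 are paralogues whose proteins carry hypusine and help peptide bonds form. EIF5A had 180.0 in shCtrl and 129.7 in shPJA1, with 118.5 in TGFb1 and 148.3 in titled shPJA/TGFb1. EIF5A2 had 166, 200 and 198 in the first 3 and 204 in the last, so shCtrl was the highest library for EIF5A and the lowest for EIF5A2. EIF5A had ratios of 0.72 (0.57 to 0.91) for shPJA1 over shCtrl and 0.66 (0.53 to 0.82) for TGFb1 over shCtrl, while no interval of EIF5A2 left out 1. GC content is 57.3% in EIF5A and 34.3% in EIF5A2. With the GC trend removed, the log2 differences against shCtrl were -0.37 and -0.46 for EIF5A, from -0.47 and -0.60, and 0.06 and -0.02 for EIF5A2, from 0.27 and 0.25. For titled shPJA/TGFb1 over shCtrl the value was -0.27 for EIF5A, from -0.28, and 0.22 for EIF5A2, from 0.29. Whether the ratios of the paralogues differ was not tested.

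**Figure D4:**
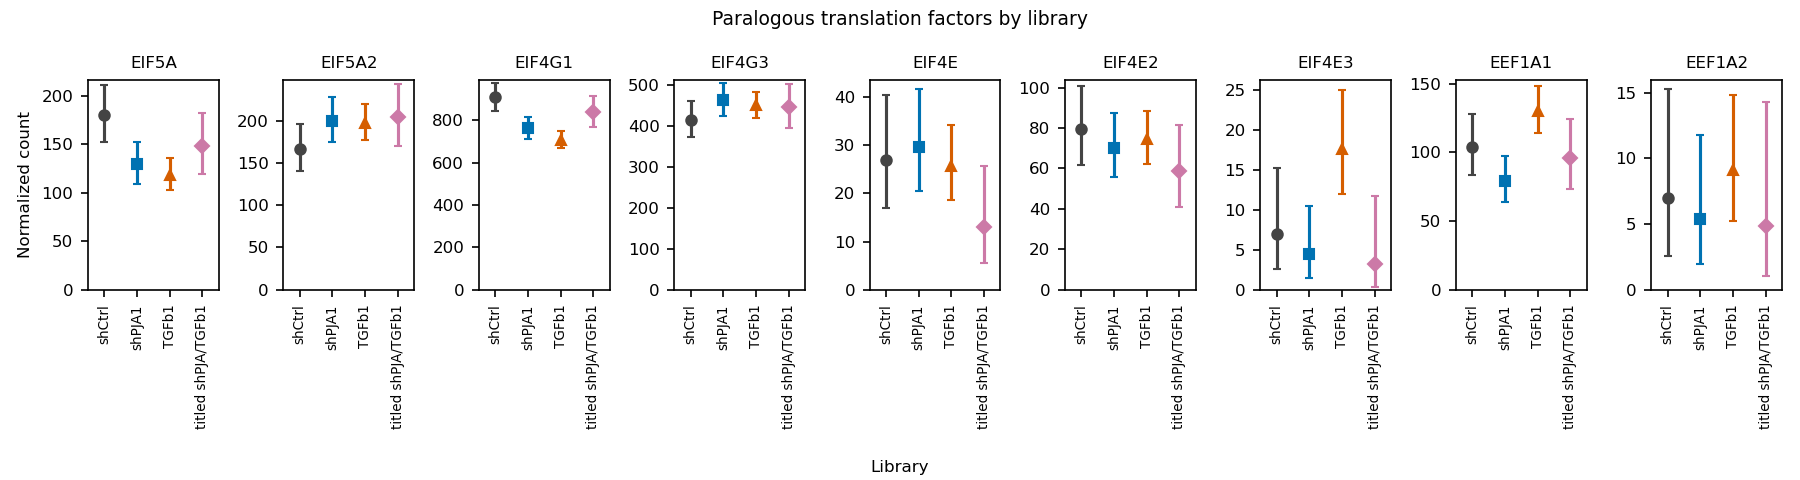
Normalized counts of 9 paralogous translation factors in the 4 libraries, with bars for the exact 95% interval of the read count divided by the size factor (counting error only) and axes that start at 0. EIF5A and EIF4G1 are highest in shCtrl while EIF5A2 and EIF4G3 are lowest there, EIF4E is lowest in titled shPJA/TGFb1, and EIF4E3 is highest in TGFb1.

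EIF5, which makes eIF2 hydrolyse its GTP, had 548, 603, 654 and 561 in shCtrl, shPJA1, TGFb1 and titled shPJA/TGFb1. TGFb1 was highest, with 1.19 (1.07 to 1.33) over shCtrl, a log2 difference of 0.25 that was 0.12 with the GC trend removed. EIF6 had 542, 476, 501 and 505, highest in shCtrl, and its ratio for shPJA1 over shCtrl was 0.88 (0.77 to 0.997), a log2 difference of -0.19 that was -0.08 with the GC trend removed.

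The eEF1 genes had their highest values in different libraries. EEF1A1 had 104, 79.2, 130 and 96.2 in shCtrl, shPJA1, TGFb1 and titled shPJA/TGFb1, and EEF1B2, an exchange subunit, had 87.7, 84.6, 127 and 83.1, both highest in TGFb1. For EEF1B2 the ratio was 1.45 (1.11 to 1.91) for TGFb1 over shCtrl and 0.65 (0.47 to 0.89) for titled shPJA/TGFb1 over TGFb1. EEF1D, another exchange subunit, had 161 in shCtrl against 115, 113 and 119, so shCtrl stood apart from the other 3. Its ratios over shCtrl, which share that library, were 0.71 (0.56 to 0.92) in shPJA1, 0.70 (0.56 to 0.88) in TGFb1 and 0.74 (0.55 to 0.99) in titled shPJA/TGFb1. EEF1D has a GC content of 62.8%, and without the GC trend the log2 differences were -0.39, -0.35 and -0.48, from -0.48, -0.51 and -0.44.

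EEF1G, the anchoring subunit of the exchange complex, had 39.7, 44.1, 45.6 and 57.0, highest in titled shPJA/TGFb1, with intervals that held 1. EEF1E1, a scaffold of the aminoacyl-tRNA synthetase complex, had 43.2, 45.9, 59.8 and 39.1, highest in TGFb1. The log2 difference of EEF1E1 for titled shPJA/TGFb1 over TGFb1 was -0.60, and -0.43 once the GC trend was removed. EEF1A2, the form of eEF1A known from muscle and nerve, had 6, 6, 16 and 3 reads.

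EEF2 is the member with the narrowest intervals, from 2885 to 7838 reads. Its normalized count was lowest in shPJA1, at 4086, against 4742 in shCtrl, 4464 in TGFb1 and 4702 in titled shPJA/TGFb1. EEF2 in shPJA1 was 0.86 times the shCtrl level (0.83 to 0.90), and titled shPJA/TGFb1 was 1.15 times the shPJA1 level (1.10 to 1.21). These ratios share shPJA1, and the library whose title also names the PJA1 hairpin did not have the lower level. With the GC trend removed the log2 difference for shPJA1 over shCtrl was -0.11, from -0.21. For TGFb1 over shCtrl the EEF2 ratio was 0.94 (0.91 to 0.98), and its log2 difference of -0.09 became 0.06 without that trend. For titled shPJA/TGFb1 over TGFb1 the ratio was 1.05 (1.01 to 1.10), and 0.08 became -0.09, so the GC correction turns the direction of EEF2 in both. EEF2K, the kinase that silences eEF2, ranged from 69.5 to 89.1, with no interval that left out 1.

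The 4 rows named EIF2C1 to EIF2C4 match by an old symbol. They are the Argonaute genes AGO1 to AGO4, which bind small RNAs and are not translation factors. EIF2C1 had 168, 149, 124 and 176 in shCtrl, shPJA1, TGFb1 and titled shPJA/TGFb1, lowest in TGFb1, with 0.74 (0.59 to 0.92) for TGFb1 over shCtrl and 1.42 (1.12 to 1.79) for titled shPJA/TGFb1 over TGFb1. EIF2C2 was steady at 248 to 268. Without these rows the median log2 difference of the members for TGFb1 over shCtrl was 0.13, where it was 0.12 with them.

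The additive model by title, with a term for the PJA1 hairpin and a term for TGFb1, called 0 of the 56 members it could fit for either term. This was edgeR's quasi-likelihood test with Benjamini-Hochberg adjustment at 0.05 over 10210 genes, of which it called 0.00979% for the hairpin and 0.0392% for TGFb1. Its p-values set each term against how far the 4 libraries depart from a simple sum of both terms. Technical spread, a joint effect of hairpin and TGFb1 and a wrong label cannot be told apart in that departure. The fit has 1 residual degree of freedom and a common coefficient of variation of 10.9%. At an unadjusted p under 0.05, edgeR had 1 member for the hairpin, EIF4E3, with a log2 change of -1.48 ± 0.61 (SE), an unadjusted p of 0.0147 and an adjusted p of 0.999852, where 2.3% of all genes passed. For TGFb1 the single member was EIF3M, with 0.35 ± 0.17 (SE), an unadjusted p of 0.0377 and an adjusted p of 0.999369 by edgeR, where 3.75% of all genes passed. DESeq2 on the same model had 0 members at either level for both terms, with 0% of all genes at the adjusted level and 0.0392% and 0.225% at the unadjusted level for the hairpin and TGFb1.

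As a whole the members' median log2 difference was -0.05 for shPJA1 over shCtrl and 0.12 for TGFb1 over shCtrl, where the medians of all kept genes were 0.0021 and -0.012. It was -0.05, 0.04 and -0.09 for titled shPJA/TGFb1 over shCtrl, over shPJA1 and over TGFb1, with -0.0054, -0.010 and -0.014 for all kept genes. The members were read more deeply than most kept genes. At a mean of at least 100, the 35 members had -0.06 for shPJA1 over shCtrl and 0.10 for TGFb1 over shCtrl. All 4007 genes of that depth had 0.014 and 0.051. For the titled shPJA/TGFb1 pairs, in the order above, these members had -0.01, 0.07 and -0.07, against 0.024, 0.011 and -0.027. The 79 kept ribosomal protein genes, the factors' partners in the ribosome, had a median of -0.20 for shPJA1 over shCtrl, with 61 below 0 where 49.5% of all kept genes lay below 0, and of -0.01 for TGFb1 over shCtrl. For titled shPJA/TGFb1 over TGFb1 the ribosomal protein median was 0.02, with 36 below 0 against 51.2%. Titled shPJA/TGFb1 over shCtrl gave -0.02, with 43 below 0 against 50.7%, and over shPJA1 it gave 0.11, with 21 below 0 against 51.1%. The 9 factors counted among the TOP messenger RNAs had -0.06 for shPJA1 over shCtrl, with 7 below 0 against the same 49.5%, and 0.19 for TGFb1 over shCtrl. The other 50 members had -0.01 and 0.11.

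Genes that act on the factors were read from lists of their own. The 4 eIF2 kinases all stayed within 1.5-fold against shCtrl. EIF2AK3, the kinase of the endoplasmic reticulum, had 66.6, 63.0, 86.0 and 55.4 in shCtrl, shPJA1, TGFb1 and titled shPJA/TGFb1, and 0.64 (0.43 to 0.94) for titled shPJA/TGFb1 over TGFb1. EIF2AK4, the kinase that senses uncharged tRNA, had 249, 256, 292 and 204, with 0.70 (0.57 to 0.85) in that pair. Both were lowest in titled shPJA/TGFb1. The other kinases, EIF2AK1 and EIF2AK2, were highest there instead, at 347 and 218, against 290 to 346 and 190 to 206 elsewhere. By the sign of the log2 difference, 2 kinases lay below 0 and 2 above 0 for titled shPJA/TGFb1 over TGFb1.

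Of 15 targets of the stress response downstream of eIF2, 1 was at least 1.5-fold higher and 4 were lower in TGFb1 over shCtrl, against 9.18% and 12.3% of all kept genes. The median log2 difference was -0.12, with 8 below 0, and 0.03 with 6 below 0 once the GC trend was removed, so the median changes direction with that correction. DDIT4, which restrains mTORC1, had 105, 95.4, 50.7 and 78.2 in shCtrl, shPJA1, TGFb1 and titled shPJA/TGFb1, with 0.48 (0.36 to 0.65) for TGFb1 over shCtrl. DDIT3, a transcription factor of that response, had 46.8, 46.8, 27.9 and 19.6, and 0.42 (0.20 to 0.79) for titled shPJA/TGFb1 over shPJA1. Both were lower in the 2 libraries titled with TGFb1, while ATF4, which drives the response, ranged from 225 to 271. ATF3, the 1 target that was higher in TGFb1 over shCtrl by the size rule, had 70.1, 73.8, 117 and 83.1 in the same order. It was higher in the 2 libraries titled with TGFb1. VLDLR, a lipoprotein receptor on that list, was highest in shPJA1 at 89.1, against 49.1 in shCtrl.

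Of 14 genes of mTORC1 and MNK signalling, 0 were at least 1.5-fold higher and 3 were lower in TGFb1 over shCtrl, against 9.18% and 12.3% of all kept genes, with a median log2 difference of 0.02. AKT1S1, an inhibitory mTORC1 subunit, had 42.1, 36.9, 16.5 and 34.2, and RPS6KB2, an S6 kinase, had 72.5, 54.9, 35.3 and 58.7. TGFb1 was the low library for both, with ratios over shCtrl of 0.39 (0.23 to 0.66) and 0.49 (0.34 to 0.70). RHEB, the GTPase that activates mTORC1, was lowest in shCtrl at 18.7, from 16 reads, against 27.9 to 32.6, and its interval for titled shPJA/TGFb1 over shCtrl held 1.

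Of 13 kept genes of poly(A) binding, termination and recycling, 0 were higher and 1 lower in TGFb1 over shCtrl by the size rule (9.18% and 12.3% of all kept genes), and 1 and 1 in shPJA1 over shCtrl (9.98% and 10.4%). MCTS1, which works with DENR in recycling and reinitiation, had 59.6, 44.1, 31.9 and 29.3, highest in shCtrl, with 0.49 (0.27 to 0.86) for titled shPJA/TGFb1 over shCtrl. DENR, its partner, had 127, 153, 136 and 158. HBS1L, a ribosome rescue factor, ranged from 181 to 237.

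The 9 mitochondrial translation factors were all below 0 for titled shPJA/TGFb1 over shCtrl and over TGFb1, with medians of -0.19 and -0.21, where 50.7% and 51.2% of all kept genes lay below 0. With the GC trend removed 9 and 7 of them were below 0. GFM1, a mitochondrial elongation factor, had 131, 128, 149 and 88.0, lowest in titled shPJA/TGFb1, with 0.59 (0.43 to 0.79) over TGFb1. MTRF1L, a mitochondrial release factor, had 33.9, 17.1, 22.2 and 19.6, highest in shCtrl, and 0.50 (0.27 to 0.93) for shPJA1 over shCtrl. MRRF, the mitochondrial ribosome recycling factor, had 14.7 in titled shPJA/TGFb1 from 9 reads, against 24.3 to 26.9.

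Of the 6 kept enzymes that modify eIF5A and eEF2, 0 were higher and 2 lower in shPJA1 over shCtrl by the size rule, against 9.98% and 10.4% of all kept genes. DPH2, of the diphthamide pathway that modifies eEF2, was among them, with 79.5 in shCtrl and 51.3 in shPJA1, with 64.4 in TGFb1 and 75.0 in titled shPJA/TGFb1 and a ratio of 0.65 (0.45 to 0.93). DPH3, of the same pathway, had 127, 143, 173 and 145, with 1.35 (1.08 to 1.70) for TGFb1 over shCtrl. DHPS, which starts hypusine synthesis on eIF5A, stayed between 33.6 and 36.2.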

How the data were processed

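The deposited table gives 1 value per symbol and library. It is named as FPKM, but in each library 100% of values were whole multiples of 1 step, within 1e-06, so the deposited signal is reads divided by a size factor per library (shCtrl 0.856, shPJA1 1.11, TGFb1 1.76, titled shPJA/TGFb1 0.614). Whole reads were recovered from it. A floor of 3 reads is 1.71 to 4.89 normalized counts. Per the submitters' processing notes, reads went through FastQC, Trimmomatic, TopHat2 2.0.10 and Cufflinks. Build, annotation and counting tool: not given in the sources used here. Per the labels' protocols, an Illumina TruSeq kit was used on total RNA.

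Groups follow the titles. Members and gene lists were chosen with earlier results of these data known. Values in every library are given for role-defining members, members at or beyond 1.5-fold at a mean of at least 20, the 3 eIF3 genes with the widest range and up to 3 genes per further list with the largest difference at that mean. EIF1, EIF2A, the steady genes, the other members whose intervals left out 1, EIF2C1, ATF4, ATF3, EIF2AK1 and EIF2AK2 were named after their values were seen. Pairs were compared with a pseudocount of 1. edgeR 4.0.16 and DESeq2 1.42.0 (R 4.3.3) were run on reads of genes with at least 40 reads. GC content and length came from GENCODE release 29, matched by symbol for 98.5% of the genes at a mean of 20 or more. For 1 alternative each library's lowess trend on GC content (span 0.3) was removed. The steps were tested on simulated data. Alternatives were other pseudocounts, filters, scalings, fold limits and gene sets. Python 3.11.15, scipy 1.17.1 and statsmodels 0.14.6 were used.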

Additional observations from a re-analysis of the deposited data

How the results depend on the processing

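The counts of members at or beyond 1.5-fold (3, 5, 5, 3 and 6 for shPJA1 over shCtrl, TGFb1 over shCtrl, and titled shPJA/TGFb1 over shCtrl, over shPJA1 and over TGFb1) moved with settings that bear on low genes. A pseudocount of 5 gave 1, 3, 3 and 3 for shPJA1 over shCtrl, TGFb1 over shCtrl, and titled shPJA/TGFb1 over shCtrl and over TGFb1. A mean of at least 20 gave 0, 3, 2, 1 and 3. A limit of 2-fold gave 2 for TGFb1 over shCtrl, 2 for titled shPJA/TGFb1 over shCtrl, 1 over shPJA1 and 2 over TGFb1. Requiring also an interval that leaves out 1 gave 0 for shPJA1 over shCtrl, 0 for titled shPJA/TGFb1 over shCtrl, 1 over shPJA1 and 2 over TGFb1. Removing the GC trend gave 3 for TGFb1 over shCtrl and took the members' median there from 0.12 to 0.066; the part of GC content was not tested further. Of 150 differences of single members, removing the GC trend took 3 under 1.5-fold (EEF1E1 at -0.43 for titled shPJA/TGFb1 over TGFb1, EIF1AX at 0.35 and EIF5A at -0.46 for TGFb1 over shCtrl), and moved 11 more out of their counting interval, while a pseudocount of 5 took 6 under it and scaling by total reads took 1. None of the members' 5 medians changed direction under these settings, and neither did any of these 150 differences that was past 1.5-fold. EIF4E3, EIF5AL1 and EIF3IP1 were not among the members checked singly. Over all pairs, 35 of all 295 member differences crossed 0 once the GC trend was removed, among them EIF4G2 and EEF2 for TGFb1 over shCtrl (0.10 to -0.0030 and -0.09 to 0.06). Leaving out the Argonaute, pseudogene and readthrough rows, chosen after seeing the data, moved no count by over 1.5 times. The edgeR count was 0 for both terms under each alternative. The order by level kept 6 of its first 10 members under median transcript length. No paired analysis was possible because each condition has 1 library, and for the same reason no library could be left out. Depth limits genes such as EIF4E, with 8 reads in titled shPJA/TGFb1, and intervals cover counting error only.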

Other observations

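Some values belong to no comparison above. The member with 1 read in 1 library, EIF4EBP3, overlaps the readthrough gene ANKHD1-EIF4EBP3 on the same strand in GENCODE release 29. LYZ, fixed as a leukocyte marker, had normalized counts of 978 to 1343 in these libraries while CD14 had at most 2.34 and CD79A at most 19.6. DOHH, the enzyme that completes hypusine on eIF5A, had 17 reads and a normalized count of 19.9 in shCtrl and 8.10, 7.97 and 8.15 in shPJA1, TGFb1 and titled shPJA/TGFb1. It was named after its values were seen, and it lies below the mean of 20.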
